A study of Mus musculus with 8 samples.

Results

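The liver of ovariectomized CD-1 mice given bisphenol A (BPA) together with Korean red ginseng (KRG) was compared with the liver of untreated ovariectomized mice, and each difference was set beside the sum of the differences that BPA alone and KRG alone made. The comparison rests on the 4 liver libraries among the 8 libraries of the study, 1 per treatment: OVX-control (neither agent), BPA at 200 mg/kg/day, KRG at 1.2 g/kg/day, and both agents at these doses, here called the combined library. All mice were female, were ovariectomized at 6 weeks of age, rested for 1 week and were dosed by mouth for 7 days, so the controls lack ovaries as well. CD-1 is an outbred stock, and it is not stated in the labels if 1 animal or several gave the RNA of a library. With 1 library per group a treatment and the genotype or state of the animals behind its library cannot be told apart, no difference below has a replicate check, and no test was possible.

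BPA is a plastics monomer with weak activity at estrogen receptors, and liver clears it mainly by joining it to glucuronic acid or sulfate. Red ginseng is steamed and dried ginseng root, rich in steroid-like saponins called ginsenosides. Mouse liver carries a strong sex difference in P450s, sulfotransferases and major urinary proteins, which is set by the pattern of growth hormone release, and it answers inflammatory cytokines by secreting acute phase proteins.

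QuantSeq libraries hold 1 fragment from the 3' end of each transcript, so counts need no correction for length. Levels are counts scaled to a library size of 1e6 (CPM) after scaling by the trimmed mean of M values, and ratios are differences of log2(CPM + 1), which understate the change of low genes. A fold is the ratio of CPM without the added 1, and its range is the exact 95% Clopper-Pearson interval, which takes in counting error only. Total counts ran from 12372073 in the combined library to 15290950 in control. Of 23282 gene rows, 6705 averaged 10 CPM or more across liver and are called measured.

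The libraries read as liver. Albumin (Alb) stood at 12579 CPM in control, 12276 with BPA, 13848 with KRG and 14583 with both. Of 17 measured hepatocyte markers, 0 differed by 2-fold between the combined library and control, where 2.52% of all measured genes did. Other cells were read at unequal levels. The summed level of 20 skeletal muscle markers was 219 CPM in control, 15.2 with BPA, 605 with KRG and 8.21 with both. That of 26 acinar pancreas markers was 235, 2100, 158 and 177 CPM in the same order, and most of the level outside the BPA library was Cela1. Of 15 red cell markers the sums were 5268, 10911, 7720 and 2482 CPM, and of the 15 neutrophil markers in the files 14.3, 24.8, 52.4 and 143 CPM. Lymphocyte (5.24 to 6.85 CPM), bile duct (25.6 to 37.1 CPM) and platelet markers (13 to 20.6 CPM) stayed low in every library, with 0 measured genes each. In bulk tissue, fewer cells of a type and less RNA per cell cannot be told apart.

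**Figure D1:**
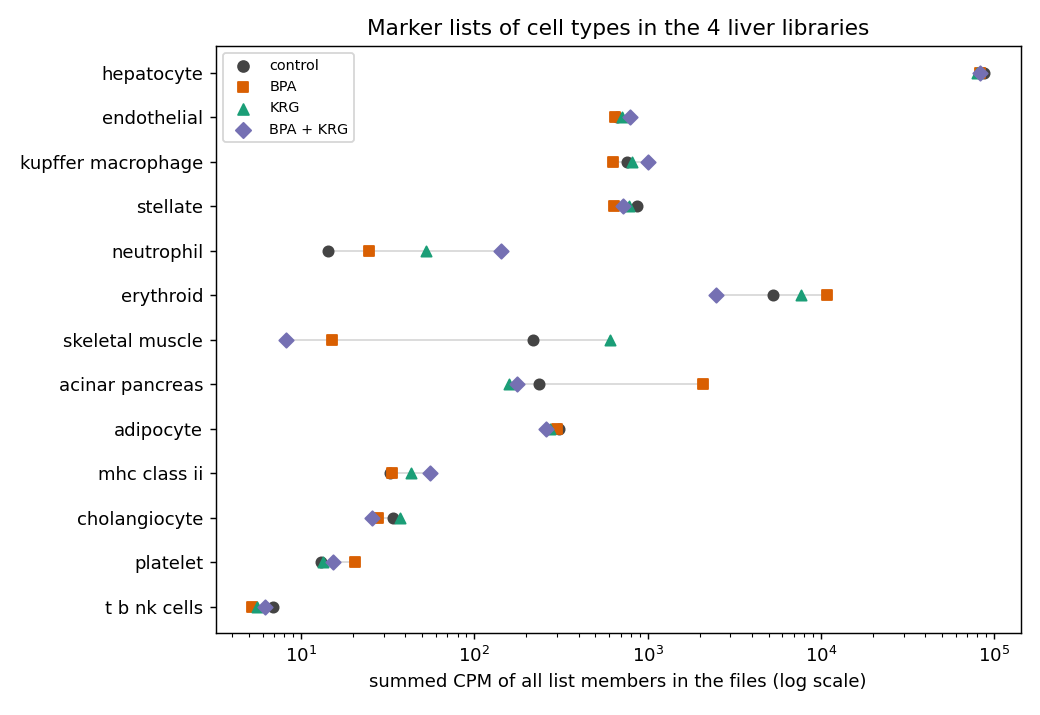
Summed CPM (log axis) of the marker genes of each cell type in the 4 liver libraries, with 1 point for each. The hepatocyte sums lie close together (79779 to 87322 CPM), while the muscle, pancreas, red cell and neutrophil sums spread widely.

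Against control, the combined library had 69 genes (1.03% of those measured) higher and 100 (1.49%) lower by at least 2-fold, 2.52% in all, where BPA alone had 3.68% and KRG alone 2.36%. The log2 ratios had a median of 0.01 and a standard deviation of 0.42 over the 6705 genes, beside 0.54 for BPA and 0.40 for KRG against the same control library. The genes nearest the threshold were Aqp8, a water channel of the bile canaliculus, at 102 CPM in control and 206 with both, just inside it, and Wfdc17, at 8.39 and 17.6 CPM, just outside. On the lower side Slc9a3r1, a scaffold protein of the canalicular membrane, lay just inside at 78.6 and 38.7 CPM, and the transcription factor Usf2 just outside at 502 and 250.4 CPM.

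The sum of the single ratios spread more widely, with a standard deviation of 0.79, and the control level enters that sum 2 times. A total of 257 genes (3.83%) lay at least 2-fold above the sum and 225 (3.36%) at least 2-fold below it, 7.19% together. With scaling to total counts these were 391 and 166, and the median departure of all genes moved from -0.01 to 0.17. Of the 69 higher genes, 32 lay within 2-fold of the sum, 17 were beyond it and 20 fell short of it, and of the 100 lower genes the counts were 55, 28 and 17. The sum was at least 1 on the log2 scale for 281 genes (4.19%), whose median sum was 1.46 and whose median ratio in the combined library was 0.37. For the 405 genes (6.04%) with a sum of -1 or less, the medians were -1.34 and -0.37. All of these ratios share the control library, so they are given side by side and no relation between them was computed.

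**Figure D2:**
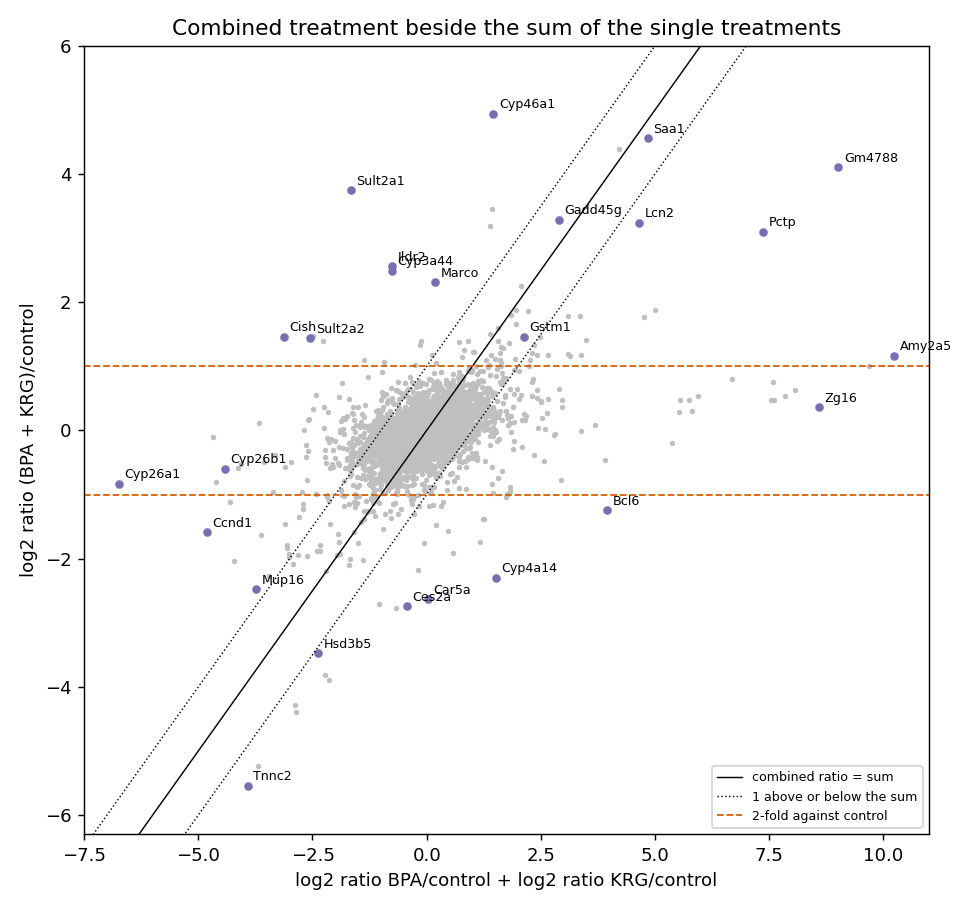
Log2 ratio of the combined library to control (vertical axis) against the sum of the log2 ratios of BPA and of KRG to control (horizontal axis) for 6705 genes, with the solid line where both are equal and dotted lines 1 above and below it. Saa1 and Gadd45g lie near the line, Cyp26a1, Cish, Sult2a1 and Cyp46a1 far above it, and Amy2a5, Gm4788, Bcl6 and Cyp4a14 far below it.

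Of the 69 higher genes, 18 (0.268% of those measured) were at least 2-fold higher in the combined library than in each of the other 3, and of the 100 lower genes 17 (0.254%) were at least 2-fold lower. Of the 18, 9 reached the minimum mean of 10 CPM only through the combined library, as did 12 of the 69, so that these had to be high there to be measured. Of the 100 lower genes, 3 reached it only through the control library and had to be high in control. The counts against each of the other 3 were 25 (0.373%) and 32 (0.477%) for the BPA library, 10 (0.149%) and 14 (0.209%) for the KRG library and 5 (0.0746%) and 14 (0.209%) for control. The 18 include sulfotransferases and P450s (Sult2a1, Sult2a2, Sult2a5, Cyp3a44, Cyp3a25, Cyp2a22, Cyp46a1), genes of neutrophils and macrophages (S100a8, S100a9, Marco) and Saa2. The 17 include Cyp4a14 and Cyp4a10, 3 male-biased genes (Hsd3b5, Mup3, Mup21), the repressor gene Bcl6 and 4 hemoglobin genes.

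**Figure D3:**
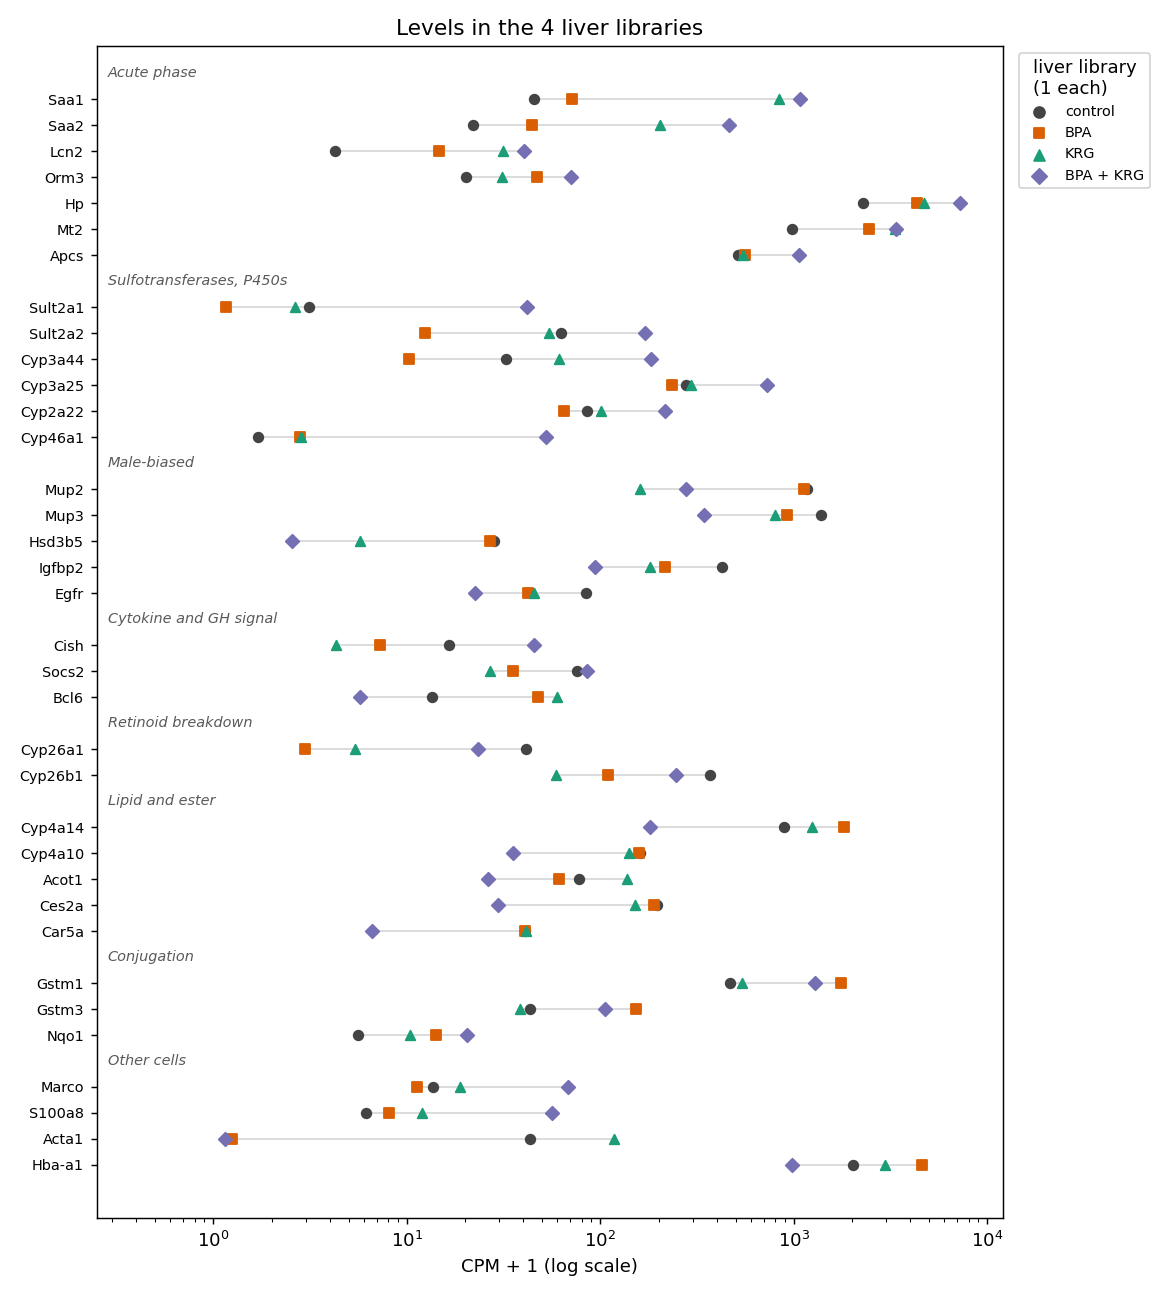
CPM + 1 (log axis) of 35 genes in the 4 liver libraries, grouped by role, with 1 point per library and a grey line over their range. The combined library is highest for Sult2a1, Cyp3a44, Cyp46a1, Marco and S100a8 and lowest for Cyp4a14, Ces2a, Car5a, Hsd3b5 and Bcl6.

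By number, though not by share, acute phase genes had the most members on the higher side of the pathway lists. Of 31 measured members of the list, 9 were at least 2-fold higher (background 1.03%) and 0 lower in the combined library. The median log2 ratio was 0.46 beside 0.01 for all genes, and 26 lay above 0. Glucocorticoid targets, which overlap this list, had a larger share higher, 6 of 17. The serum amyloid A genes Saa1 and Saa2 encode apolipoproteins that replace part of the protein of high density lipoprotein during inflammation. Saa1 read 44.7 CPM in control, 70.5 with BPA, 838 with KRG and 1076 with both, 24.1-fold (22.3 to 26.0) above control. Saa2 read 21.1 CPM in control, 43.5 with BPA, 202 with KRG and 463 with both, 22-fold (19.7 to 24.6) above control. Both were high where KRG was given, and Saa2 was highest in the combined library, at 2.29 times its KRG level. Their log2 ratios, 4.56 and 4.39, lay near the sums of 4.84 and 4.22.

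Saa1 and Saa2 are neighbours on chromosome 7, and their promoter windows are shown because the genes move together. Each window runs from 250 bases before to 50 after a RefSeq transcript start on GRCm38.p6, at chr7:46742931-46743230 on the minus strand for Saa1 and chr7:46751583-46751882 on the plus strand for Saa2, and capitals mark matches to TTGCNNAA, a C/EBP motif.
Saa1: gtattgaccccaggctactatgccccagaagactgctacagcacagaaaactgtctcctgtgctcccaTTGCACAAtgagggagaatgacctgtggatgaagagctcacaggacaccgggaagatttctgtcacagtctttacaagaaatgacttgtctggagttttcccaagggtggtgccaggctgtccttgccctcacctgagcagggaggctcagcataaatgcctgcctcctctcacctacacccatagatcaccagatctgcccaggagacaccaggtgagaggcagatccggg
Saa2: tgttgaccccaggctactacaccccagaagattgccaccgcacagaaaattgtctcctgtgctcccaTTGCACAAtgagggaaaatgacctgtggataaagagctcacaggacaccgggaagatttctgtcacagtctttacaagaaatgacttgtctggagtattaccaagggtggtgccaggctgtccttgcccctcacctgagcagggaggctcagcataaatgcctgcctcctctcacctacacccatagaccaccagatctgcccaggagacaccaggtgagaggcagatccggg
Each holds 1 match, read as TTGCACAA, starting 182 bases before the transcript start used for the Saa1 window and 183 before that of Saa2. RefSeq lists the Saa1 gene as reaching to base 46743181, farther upstream than the transcript start used for its window. The match thus lies inside the outermost limits of that gene. Of the 33 named genes with a window, Lcn2, S100a9 and Cela3b hold 1 match each as well and Ces2a holds 2. Over 27025 promoter windows, 10.8% hold such a match on either strand, and a match is a description of the letters, not of a bound site.

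Other members of the list were higher too. Haptoglobin (Hp), which binds free hemoglobin, stood at 2290 CPM in control, 4313 with BPA, 4699 with KRG and 7234 with both, 3.16-fold (3.12 to 3.20) above control. Each treated library was above control, and the combined one was highest. Orm3, an orosomucoid that carries drugs in plasma, read 19.1, 46.0, 30.2 and 69.2 CPM in that order, and its log2 ratio of 1.80 lay beside a sum of 1.86. Apcs, the pentraxin serum amyloid P, read 515, 562, 546 and 1065 CPM in that order, so its log2 ratio of 1.05 stood beside a sum of 0.21. The metallothionein Mt2, a metal-binding protein, read 977, 2446, 3337 and 3375 CPM, and its ratio of 1.79 fell short of the sum of 3.10. Lcn2, which binds bacterial iron carriers and is made by hepatocytes and neutrophils, read 3.27, 13.6, 30.4 and 39.3 CPM, 12.0-fold (9.01 to 16.4) above control. Of 10 measured signalling genes that accompany this response, 0 were 2-fold higher (background 1.03%) and 0 lower (background 1.49%), which is near these shares. Stat3, the transcription factor downstream of interleukin 6, stood at 157 and 175 CPM in control and combined.

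Some neutrophil genes and the macrophage gene Marco were higher in the same library, while the summed lymphocyte markers were not (6.85 CPM in control and 6.20 with both). S100a8 and S100a9 encode the 2 chains of calprotectin, abundant in neutrophils. S100a8 read 5.12 CPM in control, 7.13 with BPA, 11 with KRG and 55.0 with both, 10.7-fold (8.52 to 13.7) above control. S100a9 read 1.98, 2.21, 6.46 and 31.8 CPM in that order. Both genes passed the filter only through the combined library, so they had to be high there to be measured. Their log2 ratios were 3.19 and 3.46 and the sums 1.38 and 1.43. Of the granule genes, Ngp read 0.896 CPM in control and 6.20 with both and Camp 0 and 3.95, while Mpo, Elane, Ltf, Cd177 and Stfa2l1 were at 0.620 CPM or less in every library. Marco, a scavenger receptor of Kupffer and other macrophages, read 12.7, 10.2, 17.9 and 66.8 CPM, 5.27-fold (4.51 to 6.18) above control. The other macrophage markers differed less: of 10 measured, Marco was the only one at least 2-fold higher, and the median log2 ratio was 0.34. The Kupffer genes Clec4f and Timd4 stood at 21.0 and 7.04 CPM in control and at 26.1 and 7.05 with both. The part of these cells in the acute phase values was not tested.

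Some conjugating enzymes were higher. Of 34 measured glutathione, glucuronide and sulfate transferases, 8 were at least 2-fold higher (background 1.03%) and 0 lower in the combined library. The median log2 ratio was 0.22. The 8 were the glutathione transferases Gsta2, Gstm1, Gstm3, Gstm4 and Gstt3 and the sulfotransferases Sult2a1, Sult2a2 and Sult2a5. Of these, Sult2a1 passed the filter only through the combined library, and Sult2a2 and Sult2a5 may share reads. The glutathione transferase Gstm1, which joins glutathione to electrophiles, read 465 CPM in control, 1762 with BPA, 536 with KRG and 1281 with both, 2.76-fold (2.68 to 2.83) above control. Gstm3 read 42.1, 152, 37.6 and 104 CPM in that order. Both libraries given BPA were above both without it, and the combined ratios of 1.46 and 1.29 lay below the sums of 2.13 and 1.66. Gsta2 fell farther short, at 9.09, 89.2, 11.7 and 25.9 CPM, with a ratio of 1.41 beside a sum of 3.49. Nqo1, a quinone reductase and standard target of the oxidant sensor NRF2, read 4.61, 13.2, 9.34 and 19.5 CPM, 4.24-fold (3.25 to 5.58) above control with a ratio of 1.87 beside a sum of 2.22. It was the 1 gene at least 2-fold different of 19 measured NRF2 targets, whose median was 0.10. Nqo1 passed the filter only through the combined library, so it had to be high there to be measured. Of the glucuronosyltransferases measured, 0 were 2-fold higher, and Ugt2b1, an enzyme known to conjugate BPA in rodent liver, read 189, 217, 132 and 149 CPM.

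P450s and other targets of the xenobiotic receptors CAR and PXR gave a mixed picture. Of 24 measured, 3 were at least 2-fold higher (background 1.03%) and 1 lower (background 1.49%). Cyp2b10, the standard CAR target, read 27.3 CPM in control, 63.4 with BPA, 27.6 with KRG and 48.0 with both, 1.75-fold (1.55 to 1.99) above control. Cyp3a11, the standard PXR target, read 1335, 959, 1035 and 934 CPM. The exception on the lower side was Ces2a, a carboxylesterase that cleaves drug esters, at 196, 190, 151 and 28.5 CPM, 6.88-fold (6.17 to 7.68) below control. Ces2a was low in the combined library alone, and its ratio of -2.74 stood beside a sum of -0.42.

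Female-biased genes split into members above and below control. Of 28 measured, 5 were at least 2-fold higher (background 1.03%) and 4 lower (Cyp4a14, Cyp4a10, Lpl and A1bg, background 1.49%). The median log2 ratio was 0.06, where BPA alone gave 3 higher (background 1.61%) and 12 lower (background 2.07%) with a median of -0.80. Against the sum of the single ratios, 15 of the 28 lay at least 2-fold above (background 3.83%) and 3 below (background 3.36%). The median departure was 1.16. Sult2a1, Sult2a2 and, outside the list, Sult2a5 lie on chromosome 7 and encode sulfotransferases that act on steroids and bile acids. Sult2a1 read 2.11 CPM in control, 0.164 with BPA (2 counts), 1.65 with KRG and 40.8 with both, 19.3-fold (13.6 to 28.3) above control. It passed the filter only through the combined library, so it had to be high there to be measured. Sult2a2 read 61.8, 11.4, 53.5 and 169 CPM and Sult2a5 read 62.3, 11.6, 56.1 and 175 CPM. These 2 read nearly alike in every library, and since the use of reads that match several copies is not given, they are not separate observations. All 3 were lowest with BPA and highest with both, and the ratios of 1.44 and 1.48 for Sult2a2 and Sult2a5 stood beside sums of -2.54 and -2.48.

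Of the P450s in this group, Cyp3a44 read 31.6 CPM in control, 9.26 with BPA, 60.3 with KRG and 182 with both, 5.77-fold (5.23 to 6.37) above control. Cyp3a25, a related gene outside the list, read 275, 235, 293 and 728 CPM. Cyp2a22 read 84.1, 63.7, 99.5 and 214 CPM. Each of these was at least 2-fold higher in the combined library than in the other 3. Other members lay at the control level or below it: Cyp3a41a stood at 754 CPM in control, 291 with BPA and 767 with both, while A1bg, a plasma protein of female liver, stood at 1663, 239 and 655 CPM. Cyp46a1, the cholesterol 24-hydroxylase best known from brain, had the largest ratio of all measured genes, and it passed the filter on low values only through the combined library. It read 0.704 CPM in control, 1.80 with BPA, 1.86 with KRG and 51.5 with both, 73.1-fold (40.6 to 147) above control, where its control count was 11.

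Male-biased genes were lower. Of 31 measured, 0 were at least 2-fold higher (background 1.03%) and 20 lower (background 1.49%). The median log2 ratio was -1.43, beside medians of 0.20 for BPA and -0.89 for KRG and a median sum of -1.39. Single members spread around the sum, with 4 of the 31 at least 2-fold above it (background 3.83%) and 9 below (background 3.36%). The major urinary proteins bind pheromones and are encoded by a cluster of near-identical genes on chromosome 4. Of 17 measured Mup genes, 16 were at least 2-fold lower, and the family summed to 5160 CPM in control, 5860 with BPA, 1406 with KRG and 1332 with both. Shared reads make the count over copies uncertain. Mup3, one of the more divergent members, read 1385, 918, 799.6 and 342 CPM in that order and was at least 2-fold lower with both than in any other library. Hsd3b5, a steroid dehydrogenase of male liver, read 27.3, 25.9, 4.74 and 1.55 CPM, 17.6-fold (11.3 to 29.2) below control. Igfbp2, which binds insulin-like growth factors, read 426, 216, 180 and 92.7 CPM, and its ratio of -2.19 equalled the sum of -2.21 within counting error. Egfr, the epidermal growth factor receptor, read 83.7, 41.1, 44.6 and 21.4 CPM, with a ratio of -1.92 and a sum of -1.90. For Igfbp2 and Egfr, then, each single treatment lay below control and the combined library lay below both.

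Of 21 measured genes of insulin, fasting and growth hormone response, 4 were at least 2-fold higher (background 1.03%) and 3 lower (background 1.49%). Against the sum, 5 lay at least 2-fold above (background 3.83%) and 6 below (background 3.36%), with a median departure of 0.16. Cish and Socs2 are induced by the growth hormone receptor through STAT5 and dampen its signal, and Bcl6 is a repressor that competes with STAT5 for its sites. Cish read 15.5 CPM in control, 6.23 with BPA, 3.30 with KRG and 44.6 with both, 2.88-fold (2.47 to 3.36) above control, with a ratio of 1.47 beside a sum of -3.13. Cish passed the filter only through the combined library, so it had to be high there to be measured. Socs2 read 75, 34.3, 25.8 and 84.3 CPM in that order. Bcl6 went the other way, at 12.5, 46.5, 58.9 and 4.73 CPM, and its ratio of -1.24 stood beside a sum of 3.95. In these 3 genes both single treatments lay on one side of control and the combined library lay on the other, though for Socs2 it stayed within 2-fold of control. Gadd45g, a stress-inducible gene, read 7.55, 34.5, 14.4 and 82.4 CPM, with a ratio of 3.29 near the sum of 2.90, and Igfbp1 read 67.7, 145, 51.8 and 177 CPM. Igf1 itself read 1329, 1123, 1002 and 1254 CPM.

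The Cish promoter is shown for its STAT motifs, since Cish stood farthest above the sum among the 21 genes of its list. That rank rests in part on the filter, which Cish passed only through the combined library. The window lies at chr9:107296409-107296708 on the plus strand of GRCm38.p6, and capitals mark matches to TTCNNNGAA.
Cish: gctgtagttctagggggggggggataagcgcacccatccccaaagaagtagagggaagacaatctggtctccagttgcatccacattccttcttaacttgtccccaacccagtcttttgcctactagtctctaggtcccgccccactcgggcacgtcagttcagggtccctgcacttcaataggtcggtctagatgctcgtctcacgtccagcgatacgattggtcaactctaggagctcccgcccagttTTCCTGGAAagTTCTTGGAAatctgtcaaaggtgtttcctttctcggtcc
There are 2 matches, TTCCTGGAA at base 1 after the transcript start and TTCTTGGAA at base 12, and 8.47% of the 27025 windows hold at least 1. Of the other named genes with a window, Gm4788 and Prss2 hold 1 match each. Those of Cyp3a44, Sult2a5 and Hsd3b5 hold 0, which says only that these letters are not in those windows.

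**Figure D4:**
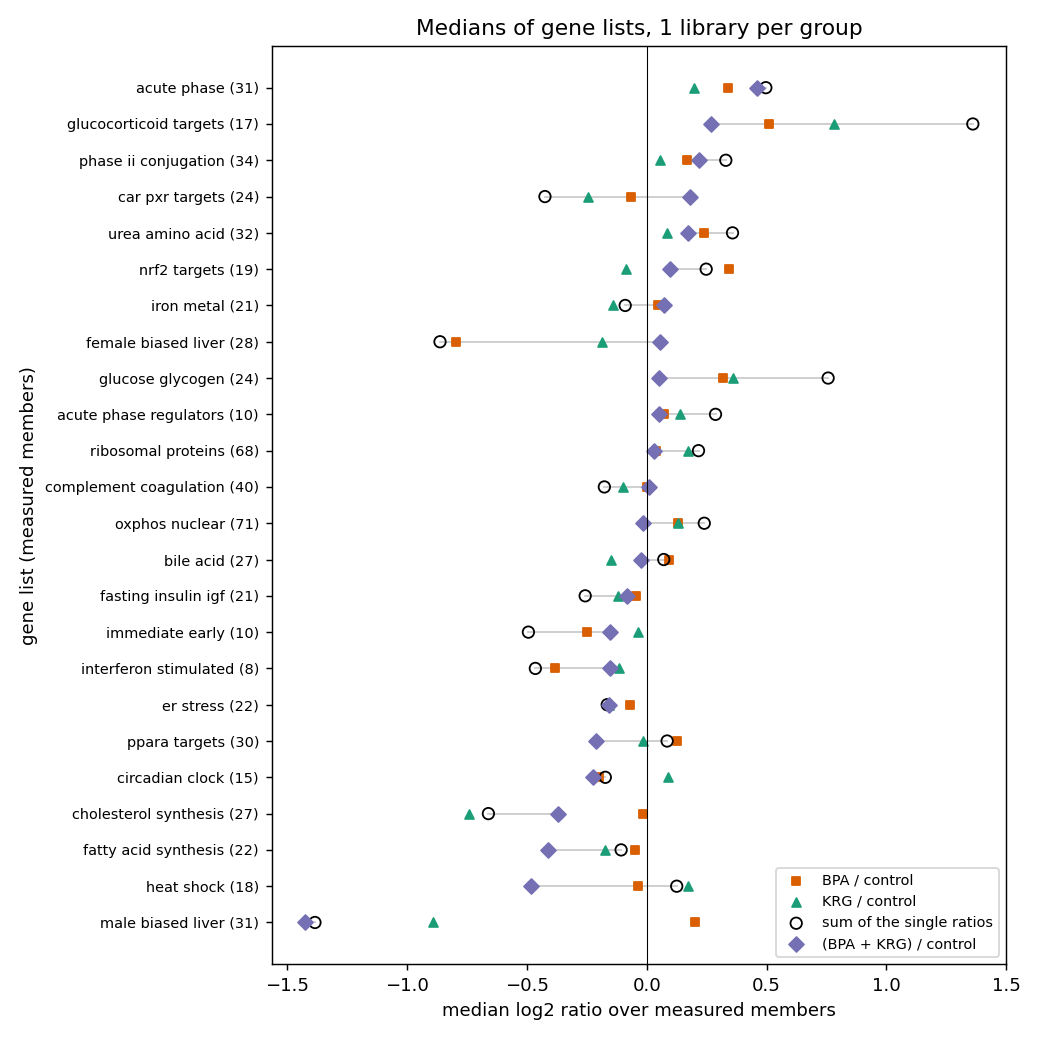
Median log2 ratio to control over the measured members of each gene list for BPA, KRG and the combined library, with an open circle for the median sum of the single ratios. The male-biased and acute phase medians of the combined library lie near the sum, while the female-biased, heat shock, glucocorticoid and glucose lists lie away from it.

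The largest departure above the sum was that of a retinoid-degrading P450, Cyp26a1. That rank rests in part on the filter, which Cyp26a1 passed only through the control library. It thus had to be high there to be measured, which favours low single ratios. Cyp26a1 and Cyp26b1 oxidize retinoic acid, which itself induces Cyp26a1. Cyp26a1 read 40.4 CPM in control, 1.97 with BPA, 4.40 with KRG and 22.2 with both, so that its ratio of -0.83 stood beside a sum of -6.74. Cyp26b1 read 370 CPM in control, 109 with BPA, 57.7 with KRG and 244 with both, with a ratio of -0.60 and a sum of -4.42. Each single treatment was low for both genes, and the combined library lay within 2-fold of control. The departures were 5.91 and 3.82 on the log2 scale, with counting standard errors of 0.36 and 0.07, which leave out the difference between animals. The Cyp26a1 promoter, at chr19:37697558-37697857 on the plus strand of GRCm38.p6, is shown for its retinoic acid element, AGTTCA and again AGTTCA after any 5 bases. Capitals mark the match, which lies on the other strand and was searched after the values were seen.
Cyp26a1: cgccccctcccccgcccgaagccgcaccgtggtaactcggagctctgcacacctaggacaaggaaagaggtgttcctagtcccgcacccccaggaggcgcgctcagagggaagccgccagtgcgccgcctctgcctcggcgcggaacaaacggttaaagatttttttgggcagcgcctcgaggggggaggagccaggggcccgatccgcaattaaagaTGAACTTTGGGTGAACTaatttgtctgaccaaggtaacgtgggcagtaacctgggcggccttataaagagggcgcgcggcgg
The match starts 32 bases before the transcript start used for the window, but RefSeq also lists the gene from base 37697738, and counted from there it lies after the start. In all, 7 of 27025 windows (0.0259%) hold one. That share counts this spelling only, since other spellings of the element were not searched.

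Fat metabolism genes lay mostly below control in the combined library. Of 30 measured targets of the fatty acid sensor PPAR-alpha, 0 were at least 2-fold higher (background 1.03%) and 4 lower (background 1.49%), and 25 lay below 0. The median log2 ratio was -0.21. Cyp4a14 and Cyp4a10 hydroxylate fatty acids at the end of the chain. Cyp4a14 read 886 CPM in control, 1809 with BPA, 1246 with KRG and 179 with both, 4.94-fold (4.73 to 5.17) below control. Cyp4a10 read 159, 158, 139 and 34.3 CPM. Acot1, a cytosolic thioesterase, read 76.6, 60.2, 136 and 25.3 CPM. All 3 were lowest with both, and the ratio of Cyp4a14, -2.30, stood beside a sum of 1.52. Acadm, the medium-chain dehydrogenase of mitochondrial oxidation, stood at 169 CPM in control and 169.8 with both. Fabp1, the fatty acid carrier of hepatocytes, read 6974, 4603, 5867 and 3659 CPM.

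Lipid synthesis lay below control as well. Of 22 measured fatty acid synthesis genes, 0 were higher (background 1.03%) and 1 lower (background 1.49%) by 2-fold in the combined library. The median log2 ratio was -0.41 beside a median sum of -0.11. Scd1, the stearoyl-CoA desaturase, read 1700 CPM in control, 2075 with BPA, 1334 with KRG and 888 with both, and Elovl5, an elongase, read 880, 766, 537 and 447 CPM. Of 27 cholesterol synthesis genes, 0 were higher and 2 lower, with a median of -0.37 beside -0.74 for KRG alone and a median sum of -0.66. Idi1, an isomerase of the isoprenoid steps, read 30.0, 17.8, 6.87 and 12.2 CPM, and Sqle, the squalene epoxidase, read 82.6, 78.6, 19.2 and 54.9 CPM. The combined library thus lay between KRG and control for both. Car5a, the mitochondrial carbonic anhydrase that supplies bicarbonate for urea and glucose synthesis, was level in the other libraries and low here, at 39.7, 39.8, 40.3 and 5.58 CPM, 7.12-fold (5.57 to 9.21) below control.

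Most cytosolic chaperones lay below control. Of 18 measured heat shock genes, 0 were at least 2-fold higher (background 1.03%) and 2 lower (background 1.49%) in the combined library, and 16 lay below 0. The median log2 ratio was -0.48 beside a median sum of 0.13. Hspa1b, the inducible HSP70, read 13.8 CPM in control, 13.4 with BPA, 22 with KRG and 2.94 with both, 4.70-fold (3.31 to 6.82) below control, and Hsph1, its exchange factor, read 75.2, 44.8, 84.9 and 31.7 CPM. Of 22 chaperones and stress genes of the endoplasmic reticulum, 3 were lower and 0 higher, with a median of -0.16. Dnajb9, a cochaperone, read 38.8, 12.5, 29.7 and 12.0 CPM and Manf, a secreted stress protein, 71.3, 37.9, 43.7 and 32.3 CPM. Both were lowest in the 2 libraries given BPA.

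Glucocorticoid targets and glucose genes lay more often below the sum than above it. Of 17 measured glucocorticoid targets, 6 were at least 2-fold higher (background 1.03%) and 0 lower (background 1.49%). All of the 6 but Dusp1 are also on the acute phase or insulin list (Mt1, Mt2, Lcn2, Ddit4, Igfbp1). The median log2 ratio was 0.27 beside 0.51 for BPA, 0.78 for KRG (7 higher, background 1.12%) and a median sum of 1.36. Of the 17, 8 lay at least 2-fold below the sum (background 3.36%) and 1 above (background 3.83%). Fkbp5, a receptor cochaperone and standard target, read 125 CPM in control, 136 with BPA, 249 with KRG and 146 with both, and Zbtb16, a transcription factor, read 11.1, 8.44, 41.6 and 5.19 CPM. Zbtb16 passed the filter only through the KRG library, so it had to be high there to be measured. Of 24 glucose and glycogen genes, 1 was higher and 1 lower, and 9 lay at least 2-fold below the sum (background 3.36%) and 2 above (background 3.83%). Gys2, the liver glycogen synthase, read 52.9, 46.3, 67.1 and 23.2 CPM, and Lpin1, a phosphatidate phosphatase and coactivator, read 114, 387, 509 and 82.5 CPM, with a ratio of -0.46 beside a sum of 3.90.

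In some genes the control library stood apart from all 3 treated ones, which places them far from the sum. It was at least 2-fold below each of the others for 14 genes and above each for 5. Gm4788, a complement factor H-related gene with close copies, read 1.41 CPM in control, 66.9 with BPA, 43.4 with KRG and 40.6 with both, so that its combined ratio of 4.11 stood beside a sum of 9.02. Pctp, a phosphatidylcholine carrier, read 2.88, 42.4, 56.6 and 32.3 CPM, with a ratio of 3.10 and a sum of 7.37. Ddit4, an inhibitor of the growth kinase mTORC1, read 10.9, 72.1, 52.0 and 39.6 CPM. On the other side Ccnd1, the cyclin of cell cycle entry, read 353, 53.0, 81.4 and 117 CPM, Lifr, the leukemia inhibitory factor receptor, read 566, 182, 209 and 163 CPM, and Egr1, an immediate early gene, read 33.7, 8.52, 5.77 and 7.44 CPM. The 3 treated libraries lay on the same side of control for each of these genes. Egr1 passed the filter only through the control library, so it had to be high there to be measured.

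Muscle, pancreas and blood genes complete the lists of called genes. All 7 measured skeletal muscle genes were at least 2-fold lower in the combined library, and all 7 passed the filter only through the control and KRG libraries. Their median log2 ratio was -4.29, and -4.10 with libraries at 0 counts set to 3 counts. Tnnc2, a fast muscle troponin, read 45.6 CPM in control, 0.246 with BPA, 114 with KRG and 0 with both, at least 196-fold below control where 3 counts in the combined library stand for 0, and at least 159-fold by the exact interval. Acta1, skeletal actin, read 42.5, 0.246, 117 and 0.155 CPM. Muscle genes were thus near 0 in both libraries given BPA, and they supply 7 of the 100 lower genes. Of 11 measured pancreas genes, 10 passed the filter only through the BPA library, which fixes that they were high with BPA and below the sum. Against control 1 of the 11 was 2-fold higher in the combined library and 0 lower. Amy2a5, pancreatic amylase with near-identical copies, read 0, 457, 1.65 and 1.24 CPM. Of 10 red cell genes 4 were lower (background 1.49%, and 7 genes with scaling over all 8 libraries) and 0 higher. Their median was -0.99 beside 0.89 for BPA and 0.49 for KRG. Hba-a1, an alpha globin with a near-identical copy, read 2014, 4595, 2966 and 981 CPM. Without the marker genes of cells other than hepatocytes, 63 genes were at least 2-fold higher and 88 lower.

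Several groups held few genes 2-fold different between the combined library and control, or 0, where 2.52% of all measured genes were. Of 40 complement and clotting genes and 32 urea cycle and amino acid genes, 0 were 2-fold different, which is near that share. The medians were 0.01 and 0.17. The same held for 68 ribosomal protein genes (median 0.03) and 71 subunits of oxidative phosphorylation (median -0.02). Of 27 bile acid genes, 1 was higher and 1 lower. Abcb11, the bile salt export pump, read 129 CPM in control, 321 with BPA, 161 with KRG and 270 with both, and Cyp7b1, of the alternative synthesis route, read 74.3, 73.7, 32.4 and 35.3 CPM. Cyp7a1, the rate-limiting enzyme, read 106, 122, 142 and 99.7 CPM. Esr1, the estrogen receptor of liver, read 24.3, 12.6, 17.2 and 23.5 CPM, with a ratio of -0.05 beside a sum of -1.37.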

How the data were processed

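Total RNA (500 ng per library) from liver was made into QuantSeq libraries, per the labels' protocols. The authors deposited raw whole-number counts per gene symbol, 1 file per library; 44 of 23282 rows repeat a symbol and were kept apart. Bowtie2, edgeR and mm10 appear, with no version or role, in the submitters' processing notes. How genes were counted, and whether multi-mapped reads or strand were used, is not given in the sources used here.

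Counts of the 4 liver libraries were scaled by TMM (edgeR 4.0.16, R 4.3.3). Genes averaging 10 CPM or more were kept, a pseudocount of 1 CPM was added, and 2-fold on that scale was the threshold. Totals were 15290950 (control), 12971825 (BPA), 14591384 (KRG) and 12372073 (both), so that 1 count is 0.0640 to 0.0819 CPM; Rn45s, the ribosomal RNA precursor, took 8.30% to 12.4%. Without molecular identifiers, reads may repeat 1 molecule, and Clopper-Pearson intervals cover counting error only. A count of 0 was set to 3 counts for bounds. The counting standard error of a departure from the sum is the root of the summed inverse counts of the 4 libraries, converted to the log2 scale. The scripts were tested on simulated data.

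Members, the 40 gene lists and motifs were chosen with earlier results of these data known. Named genes were, by size of the ratio, the first 12 higher and first 12 lower, the 8 farthest above and below the sum, the 8 highest and lowest against the nearest other library, up to 4 per list, and Cyp2b10, Cyp3a11, Cyp1a2, Cyp7a1, Esr1, Nqo1, Gstm1, Saa1, Alb and Rn45s. Part of these is described. A1bg, Acadm, Apcs, Aqp8, Bcl6, Camp, Ccl27a, Cd177, Cela1, Clec4f, Cyp2a22, Cyp3a25, Cyp3a41a, Egfr, Elane, Fabp1, Fkbp5, Foxq1, Gm13305, Gstm4, Gstt3, H2-K1, Hp, Igf1, Il11ra2, Lifr, Lpin1, Lpl, Ltf, Mpo, Mup21, Ngp, Slc9a3r1, Socs2, Sqle, Stat3, Stfa2l1, Timd4, Ugt2b1, Usf2, Wfdc17 and Zbtb16 fall outside it and were named after their values were seen. Promoter windows and loci are from RefSeq on GRCm38.p6, the same build as mm10, and 33 of 45 genes named by the first 3 rules had a window. Alternatives were DESeq2 1.42.0 size factors, total counts with and without Rn45s, TMM over all 8 libraries, a mean of at least 1 CPM, no filter, pseudocounts of 0.25 and 5 CPM, and removal of marker genes.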

Additional observations from a re-analysis of the deposited data

Results flagged for a closer look

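The BPA ratio pointed in opposite directions without and with ginseng, by at least 2-fold each way, for 38 of the 6705 measured genes. Of these, 9 are among the genes named for the largest ratios or departures and are described here. The difference between the 2 ratios is the same quantity as the departure from the sum. Its size was thus partly fixed by that choice. The difference was not tested, since each ratio is 1 library against 1. The log2 ratio of BPA to control and that of the combined library to KRG were -1.42 and 3.98 for Sult2a1 (difference 5.40), -2.34 and 1.64 for Sult2a2 (3.98), -2.33 and 1.63 for Sult2a5 (3.96), and -1.67 and 1.58 for Cyp3a44 (3.25). They were -3.80 and 2.11 for Cyp26a1 (5.91), -1.76 and 2.06 for Cyp26b1 (3.82), -1.19 and 3.41 for Cish (4.60), and -1.33 and 3.24 for 9030619P08Rik (4.57), a transcribed pseudogene at 96.7 CPM in control and 89.8 with both. Cyp4a14 alone of the 9 went the other way, at 1.03 and -2.79 (-3.82). Sult2a2 and Sult2a5 may share reads, and the Sult2a1 value rests on 2 counts in the BPA library. Sult2a1 and Cish passed the filter only through the combined library, and Cyp26a1 passed it only through the control library.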

How the results depend on the processing

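No paired analysis was possible because each group holds 1 library, and no replicate could be left out. The count of higher genes, 69, was 156 with a mean of at least 1 CPM and 177 with no filter, and that of lower genes, 100, was 215 and 237. Genes above the sum, 257, were 621 and 734 with these filters and 391 with total counts, which took the share of departures of at least 2-fold that lie above the sum from 53.3% to 70.2%. Genes below the sum, 225, were 504 and 651. Genes highest in the combined library by 2-fold, 18, were 29 and 38, and genes lowest by 2-fold, 17, were 32 and 32, and 11 with a pseudocount of 5 CPM. Wider filters test more genes, many with few counts. Of the 37 list medians, 6 changed sign: bile acid to 0.009 with total counts and 0.016 without Rn45s, oxidative phosphorylation to 0.013 and 0.001, complement to -0.034 and ribosomal proteins to -0.018 with TMM over 8 libraries, AHR targets to 0.174 with a mean of at least 1 CPM and 0.108 with no filter, and adipocyte markers to -0.047 with no filter. Of 67 named genes at least 2-fold different, 7 fell under 2-fold with a pseudocount of 5 CPM (Amy2a3, Amy2a5, Cyp7b1, Des, Dusp1, Fads2 and H2-Aa). Under the other scalings the counts of higher and lower genes in a list moved by at most 1 gene, except that lower red cell genes, 4, were 7 with TMM over 8 libraries. Depth limits low genes: 3 counts are 0.192 CPM in control and 0.232 in the combined library.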

Other observations

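For a few genes both libraries given KRG stood apart from both without it, with the combined ratio close to the sum. Il11ra2, a receptor chain, read 204 CPM in control, 186 with BPA, 91.4 with KRG and 84.6 with both, and Gm13305 read 203, 185, 90.0 and 83.8 CPM, nearly the same in every library, so reads may be shared. Ccl27a, a chemokine, read 10.4, 10.5, 46.5 and 53.0 CPM. Their log2 ratios to control in the combined library were -1.26, -1.27 and 2.25, beside sums of -1.28, -1.30 and 2.08. H2-K1, a class I antigen gene that varies between mouse strains, read 137 CPM in control, 572 with BPA, 1057 with KRG and 507 with both.

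Some genes outside the lists stood apart in the combined library. Ildr2, an immunoglobulin-like receptor, read 9.09 CPM in control, 18.8 with BPA, 2.06 with KRG and 58.6 with both, 6.44-fold (5.38 to 7.76) above control, and Foxq1, a forkhead factor, read 15.8, 5.41, 8.18 and 43.2 CPM. Ildr2 and Foxq1 passed the filter only through the combined library, so they had to be high there to be measured. Dmbt1, a secreted scavenger protein of epithelia, read 21.3, 9.34, 22.4 and 2.40 CPM, 8.85-fold (6.12 to 13.2) below control. Of the 15 measured circadian clock genes 0 were 2-fold higher and 0 lower in the combined library, near the 2.52% of all measured genes. Their median was -0.22.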
